A study of Mus musculus with 6 samples.

Results

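The BCL2 family genes were examined in mouse mammary NME cells and in their EGFR inhibitor-resistant derivative, AGR. The genes were chosen by name, with earlier results of these data known. They comprised 3 anti-apoptotic genes (Bcl2, Bcl2l1 and Mcl1), 4 genes for BH3-only proteins (Bcl2l11, Bmf, Bbc3 and Pmaip1) and 3 genes for effectors (Bok, Bax and Bak1). Of these 10 genes, 9 had a probe set whose only symbol was that gene, out of 19938 genes with such a probe set, and each of the 9 had exactly 1. Bax was not analysed here. NME cells are NMuMG cells, a line of normal mouse mammary gland epithelium, that were made to overexpress EGFR by viral transduction and puromycin selection and were transformed by it. AGR cells came from an NME 3D culture treated with 1 µM AG1478, an inhibitor of the EGFR kinase, from which 1 large colony was picked and expanded in 2D culture. Both lines carry the EGFR transgene and were grown in medium with serum and insulin. According to the study's methods the resistant lines were kept without drug, so the comparison is between cell lines and not between cells with and without AG1478. As AGR is derived from 1 colony, differences that belong to this colony and differences that belong to resistance cannot be told apart. RNA of each line was hybridized to 3 Affymetrix arrays (Mouse Gene 1.0 ST).

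BCL2 family proteins decide whether the outer membrane of the mitochondrion stays intact. BAX and BAK form pores in it that release cytochrome c and start the caspase cascade, anti-apoptotic proteins such as BCL2, BCL-XL and MCL1 hold the pore formers in check, and BH3-only proteins relay stress by binding the anti-apoptotic proteins or by activating the pore formers. In mammary epithelium, BIM (the product of Bcl2l11) and BMF are known for the death of cells that lose contact with matrix and for clearing the lumen of acini, and signaling from EGFR through ERK is known to keep BIM low. An array probe set sums the transcripts of a gene, so splice forms with opposing roles, such as those of Bcl2l1, were not separated.

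The promoters of the genes that differed most and of Bcl2l11 are shown here. Whether the regulators described later act on these promoters was not tested. Each line gives the 250 bases before the outermost start site that RefSeq lists, 5′ to 3′ on the strand of the gene, from build GRCm38.p6. Capitals mark matches on either strand to any of 7 motifs. The GC box was searched as GGGCGG. The E-box of the type that Snail and Zeb proteins bind was searched as CAGGTG. For forkhead factors the letters were TGTTTAC. An AP-1 site was searched as TGANTCA, where N is any base. The E2F elements were TTTCCCGC and TTTGGCGC. The TATA box was searched as TATAAA.
Bcl2 (chr1:106714291-106714540, - strand): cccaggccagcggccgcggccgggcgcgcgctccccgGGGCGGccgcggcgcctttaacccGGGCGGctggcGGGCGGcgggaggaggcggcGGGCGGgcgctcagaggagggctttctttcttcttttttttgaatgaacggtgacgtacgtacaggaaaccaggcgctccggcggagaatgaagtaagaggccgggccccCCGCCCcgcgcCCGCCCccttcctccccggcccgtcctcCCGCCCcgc
Bmf (chr2:118549687-118549936, - strand): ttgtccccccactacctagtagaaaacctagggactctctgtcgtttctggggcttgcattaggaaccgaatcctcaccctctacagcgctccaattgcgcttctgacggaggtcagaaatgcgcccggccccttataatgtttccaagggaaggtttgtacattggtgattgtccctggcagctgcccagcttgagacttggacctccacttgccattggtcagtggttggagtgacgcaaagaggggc
Bok (chr1:93685325-93685574, + strand): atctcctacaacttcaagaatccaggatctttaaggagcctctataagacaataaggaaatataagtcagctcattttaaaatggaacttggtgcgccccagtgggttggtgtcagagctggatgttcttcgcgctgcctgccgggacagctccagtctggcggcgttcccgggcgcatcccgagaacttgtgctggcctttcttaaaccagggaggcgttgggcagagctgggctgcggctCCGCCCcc
Bcl2l11 (chr2:128125788-128126037, + strand): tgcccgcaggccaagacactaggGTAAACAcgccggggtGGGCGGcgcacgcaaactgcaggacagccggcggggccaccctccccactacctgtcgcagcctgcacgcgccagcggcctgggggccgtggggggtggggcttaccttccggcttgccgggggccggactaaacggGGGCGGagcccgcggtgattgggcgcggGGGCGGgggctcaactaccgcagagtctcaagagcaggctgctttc
The Bcl2 window held 7 GC boxes in a sequence with 74.8% G and C, the Bcl2l11 window held 3 GC boxes and 1 forkhead element, and the Bok window held 1 GC box. The Bmf window, with 54.0% G and C, held none of the 7 motifs. RefSeq lists 3 start sites for Bmf and 2 for Bcl2l11, and which of them these cells use was not measured. Over all 32851 such windows the median was 52.4% G and C. At least 1 GC box was present in 32.7% of them, and the forkhead element in 3.17%. An E-box of this type was present in 17.2%, an AP-1 site in 6.75%, the E2F elements in 0.895% and 0.417% and a TATA box in 12.4%. These are matches of letters and not sites of binding.

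Values are log2 of the intensity that the authors deposited, and the fold change (FC) is AGR over NME. The number of arrays limits the precision, and no detection calls come with the values. Median intensities of the 6 arrays lay between 190.4 and 200.8. Over all probe sets, arrays of the same line had correlations of 0.995 to 0.997, and arrays of different lines of 0.986 to 0.988. AGR replicate 2 stood apart from the other AGR arrays by more than 2-fold in 36 genes, against 7 genes or fewer for any other array. Of the epithelial markers, Cdh1, Krt8 and Krt18 were bright in both lines (means of at least 12.93), and Krt7, Cldn3 and Cldn4 were dimmer (means of 8.14 to 8.62). Epcam (6.58 in NME and 6.51 in AGR cells) and Cldn7 (6.98 and 6.97) lay lower. Both were under the 95th percentile of 1189 olfactory and vomeronasal receptor genes (7.24 and 7.20), which mammary cells are not expected to use. All 9 BCL2 family genes lay above this percentile in both lines, by at least 1.18 on the log2 scale.

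The death-promoting gene Bmf was lower and the survival gene Bcl2 was higher in AGR cells. Bmf had the largest difference of the 9 genes, to 35.3% of its level in NME cells, and Bcl2 reached 161% of its NME level. Pmaip1 and Bok, which also encode proteins of the death-promoting side, were higher in AGR cells, and Bcl2l11 was slightly lower. Of the 9 genes, 5 passed the test (limma, Benjamini-Hochberg adjusted p under 0.05 over all genes), 3 with higher and 2 with lower values in AGR cells, and 4 did not. Over all genes tested, 24.2% passed in either direction, 12.6% higher and 11.6% lower. Among genes at or above the median brightness of all probe sets, where all 9 lie, 37.2% passed. As the 9 genes were chosen with earlier results of these data known, their share is a description and not an independent result. The 9 genes differed in both directions, 4 with a log2 FC above 0 and 5 below it, and their median log2 FC was -0.11, beside -0.02 over all genes. With adjusted p under 0.05 and a FC above 2, the thresholds for DEGs in the study, 1 of the 9 genes (Bmf) was called, as were 3.00% of all genes, 1.50% with lower values in AGR cells.

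**Figure D1:**
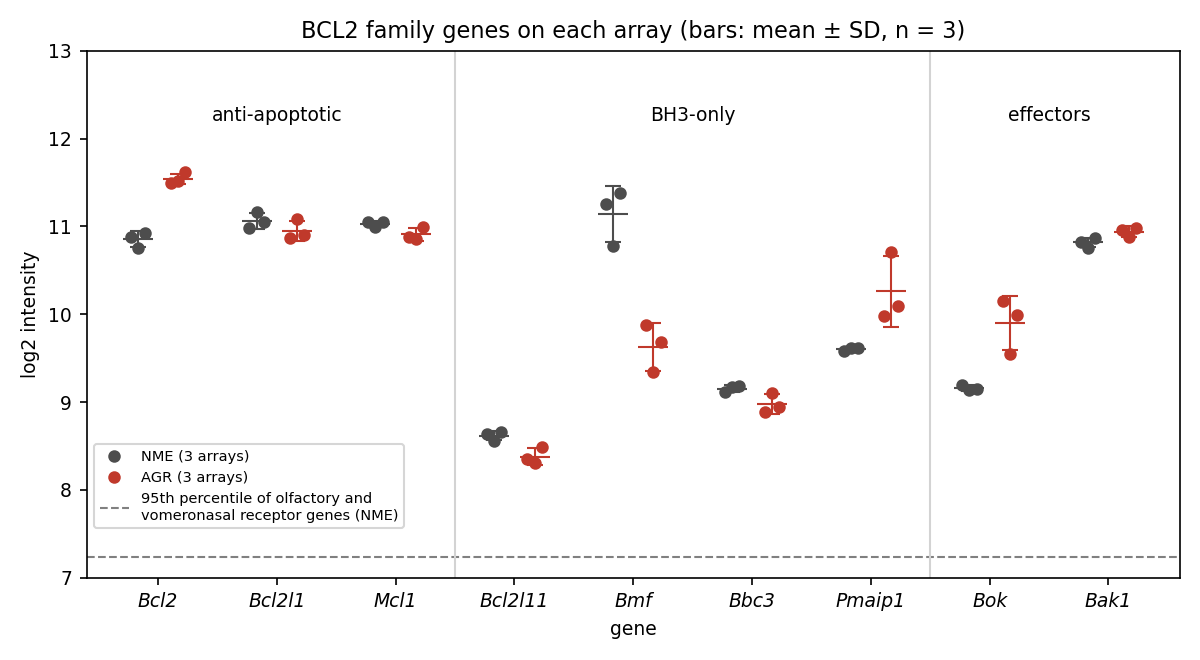
Log2 intensity (y axis) of the 9 measured BCL2 family genes (x axis) on each array, in gray for NME and in red for AGR cells, with the mean and SD of 3 arrays. Bmf falls from 11.14 to 9.63 and Bcl2 rises from 10.86 to 11.54, and every point lies above the dashed line at 7.24, the 95th percentile of the receptor genes in NME cells.

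Among the anti-apoptotic genes, Bcl2 rose in AGR cells. Bcl2 encodes the founding member of the family, an inhibitor of apoptosis on the outer mitochondrial membrane and the endoplasmic reticulum. Its log2 intensity was 10.88, 10.76 and 10.93 on the NME arrays and 11.50, 11.52 and 11.62 on the AGR arrays. The lowest AGR array lay well above the highest NME array, and the spread within each line was small (SD 0.09 and 0.06, n = 3). The increase was 1.61-fold, a log2 FC of 0.69 (SE 0.06) with an adjusted p of 0.000359 from limma. Bcl2 passed in all 17 alternatives that were run, with log2 FCs of 0.64 to 0.72.
The other anti-apoptotic genes did not pass the test. Bcl2l1, which encodes BCL-XL and, by splicing, the death-promoting BCL-XS, had log2 intensities of 10.98, 11.16 and 11.05 in NME and 10.87, 11.08 and 10.90 in AGR cells. The lines overlapped, with a log2 FC of -0.11 (95% interval -0.28 to 0.06, adjusted p = 0.372 from limma). Mcl1, which encodes a short-lived protein needed for the survival of many epithelial cells, was at 11.05, 10.99 and 11.05 in NME and at 10.88, 10.86 and 10.99 in AGR cells. Its highest AGR array reached the lowest NME array, and the log2 FC was -0.12 (95% interval -0.24 to 0.00, adjusted p = 0.156 from limma).

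Of the BH3-only genes, Bmf and Bcl2l11 fell, Pmaip1 rose and Bbc3 did not pass. BMF is a BH3-only protein held on myosin V motors by the dynein light chain DYNLL2 until it is set free. Its log2 intensity was 11.26, 10.78 and 11.38 on the NME arrays and 9.88, 9.34 and 9.69 on the AGR arrays. All AGR arrays lay below all NME arrays, although Bmf was among the more variable members in both lines, with SDs of 0.32 and 0.27 (n = 3). Replicate 2 was the lowest array in either line. The log2 FC was -1.50 (SE 0.19, adjusted p = 0.0016 from limma), a 2.84-fold decrease that ranked 279 by size among the 19938 genes. Bmf passed in all 17 alternatives, with log2 FCs of -1.68 to -1.36.
BIM binds all the main anti-apoptotic proteins and is tethered by the related light chain DYNLL1. Bcl2l11 was at 8.64, 8.56 and 8.66 in NME cells and at 8.35, 8.31 and 8.49 in AGR cells. The lines did not overlap, but the difference was small. The log2 FC was -0.24 (SE 0.06, adjusted p = 0.0336 from limma), which leaves 85.0% of the NME level. The gene passed in 9 of the 17 alternatives. It did not pass with arrays centred on their medians (adjusted p = 0.081 from limma) or when any array other than AGR replicate 3 was left out (adjusted p from 0.0515 to 0.12 from limma).
Bbc3, which encodes PUMA, a target of p53, had log2 intensities of 9.11, 9.17 and 9.18 in NME and 8.89, 9.10 and 8.94 in AGR cells. The highest AGR array lay just below the lowest NME array. The log2 FC of -0.18 (SE 0.06, 95% interval -0.33 to -0.02) did not pass after adjustment (adjusted p = 0.103 from limma). Without AGR replicate 2 it was -0.24 and passed (adjusted p = 0.0146 from limma).
Pmaip1, which encodes NOXA, a BH3-only protein that binds chiefly MCL1, rose in AGR cells. It was nearly constant on the NME arrays, at 9.58, 9.62 and 9.62, and scattered on the AGR arrays, at 9.98, 10.71 and 10.09. The AGR value of 10.71 was on replicate 2, the array that stood apart in other genes too, and the other AGR arrays were also above all NME arrays. The log2 FC was 0.65 (SE 0.18, adjusted p = 0.0394 from limma) with all arrays and 0.43 (adjusted p = 0.00245 from limma) without AGR replicate 2. The call was lost without AGR replicate 3 or any of the NME arrays (adjusted p from 0.08 to 0.129 from limma).

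**Figure D2:**
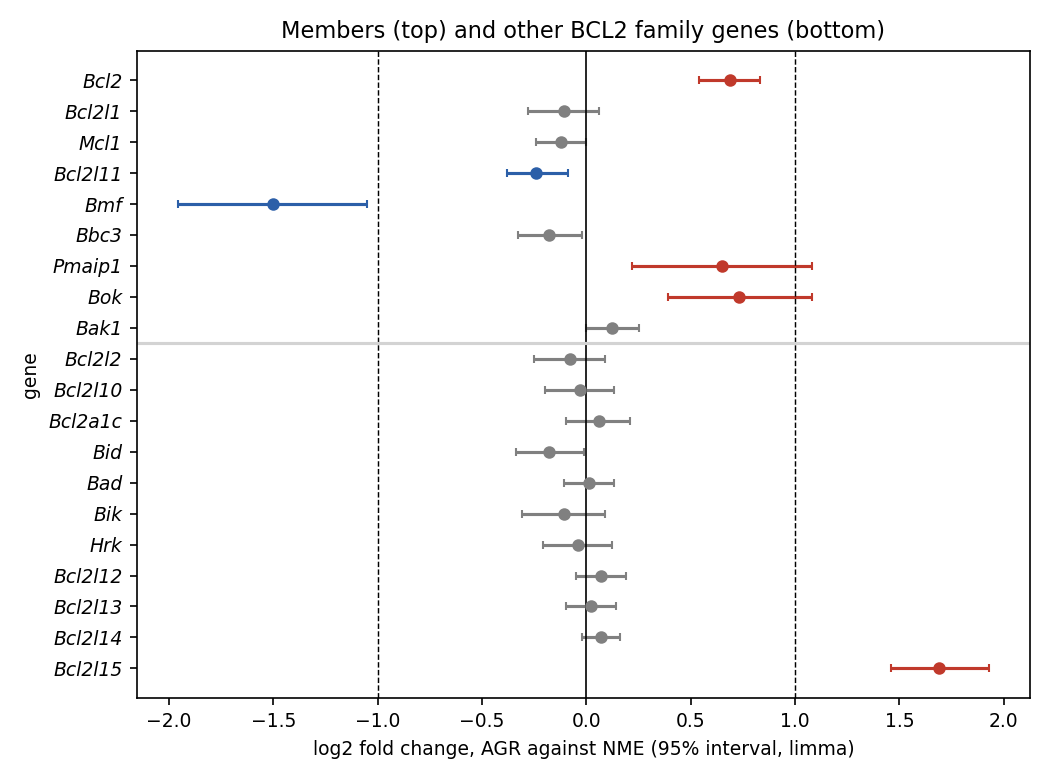
Log2 fold change of AGR against NME cells (x axis) with its 95% interval from limma, for the 9 measured members (above the gray line) and for 11 other BCL2 family genes (below it). Color marks genes that passed limma (adjusted p under 0.05), red for higher and blue for lower in AGR cells, and gray the others. Bmf (-1.50) and Bcl2l15 (1.69) lie beyond the dashed lines at a FC of 2.

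Among the effector genes, Bok rose and Bak1 did not pass. BOK is a relative of BAX and BAK that is found largely on the endoplasmic reticulum and can permeabilize mitochondria without the activation that they need. Its log2 intensity was 9.20, 9.14 and 9.15 on the NME arrays and 10.15, 9.55 and 9.99 on the AGR arrays. All AGR arrays were higher, with AGR replicate 2 the lowest of them, the opposite of its place for Pmaip1. The increase was 1.66-fold, a difference of 0.73 on the log2 scale (SE 0.15, adjusted p = 0.0108 from limma). Without AGR replicate 2 the log2 FC was 0.91. The call was lost without NME replicate 2 (adjusted p = 0.0517 from limma) and without AGR replicate 3 (adjusted p = 0.0597 from limma).
Bak1, which encodes the pore former BAK, was at 10.82, 10.76 and 10.87 in NME and at 10.96, 10.88 and 10.98 in AGR cells. The lines did not overlap by a narrow margin, and the log2 FC was 0.12 (95% interval 0.00 to 0.25, adjusted p = 0.149 from limma). In all, 7 of the 9 genes had values that did not overlap between the lines, as did 36.4% of all genes tested. That share includes genes dimmer than the 9, and the share among genes of like brightness was not computed, so the counts are not directly comparable.

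**Figure D3:**
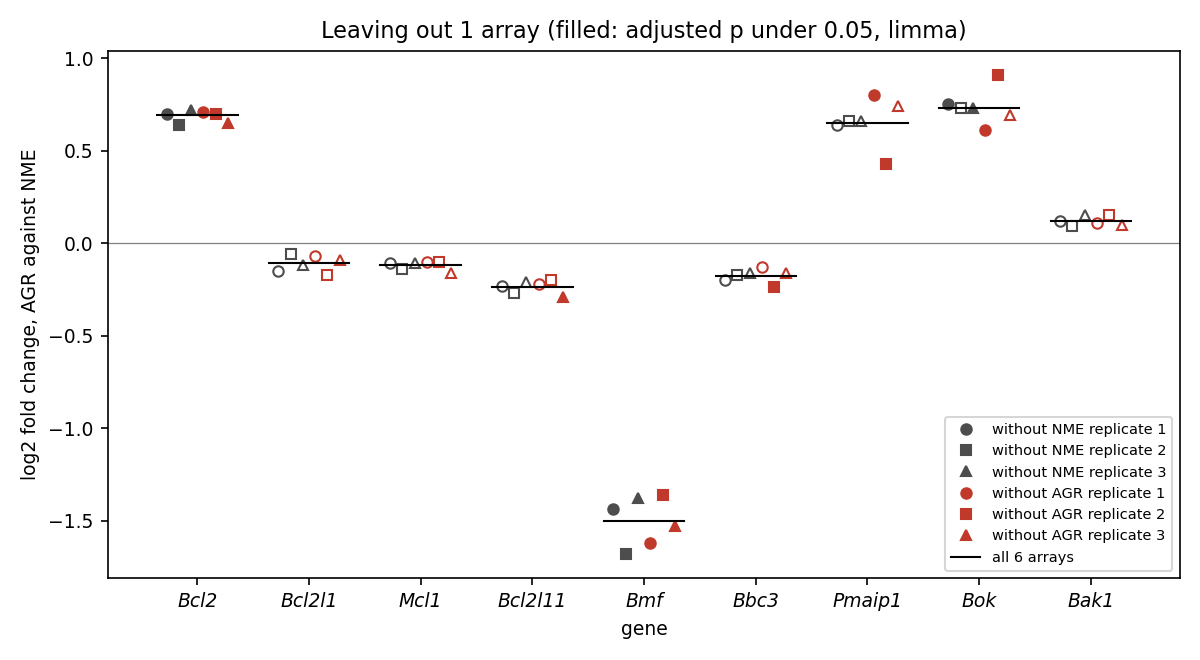
Log2 fold change of AGR against NME cells (y axis) of the 9 genes (x axis) when 1 array was left out (gray symbols for an NME array, red for an AGR array), with the value from all 6 arrays as a black line. Filled symbols passed at an adjusted p under 0.05 from limma. Bcl2 and Bmf stay filled throughout, Pmaip1 drops to 0.43 and Bok climbs to 0.91 without AGR replicate 2.

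Of 14 further genes of the BCL2 family, 11 had a probe set of their own, of which 1 was higher, 0 were lower and 10 did not pass limma (median log2 FC 0.01). At an unadjusted p under 0.05 in limma, Bid, whose log2 FC was -0.18, was the only gene added, and it was named after its values were seen. Bcl2l15, a family member with an unsettled role that is known from gut epithelium, rose from 5.55, 5.67 and 5.40 in NME to 7.17, 7.40 and 7.11 in AGR cells. The log2 FC was 1.69 (adjusted p = 5.88e-05 from limma). The NME mean of 5.54 lay under the 95th percentile of the receptor genes and the AGR mean of 7.23 just above it, so the size of the change is uncertain. The gene passed in all 16 alternatives that tested it. The remaining 10 genes, among them Bid, Bad, Bik and Hrk for BH3-only proteins and Bcl2l2 for the survival protein BCL-W, had log2 FCs between -0.18 and 0.07. Of these, Bcl2l10, Bcl2a1c and Bcl2l14 lay under the 95th percentile of the receptor genes in both lines, so a difference in them may have gone unseen. Bcl2a1c belongs to a cluster of near-identical copies, whose transcripts its probes may share.

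Downstream of the mitochondria, the apoptosome and caspase list had 11 measured genes of 13, of which 2 were higher, 1 was lower and 8 did not pass (median log2 FC 0.01). Over all genes tested 24.2% passed, and 37.2% of those at or above the median brightness of all probe sets, where all 11 lie. The share of 24.2% also stands beside the counts of the other lists. The share of 37.2% applies to them only in part, as some of their genes are dimmer. At or above that median lay 7 of the 11 further BCL2 family genes and 7 of the 11 death receptor genes. So did 5 of the 6 IAP genes and all 10 outer membrane, fission and fusion genes. Casp2, an initiator caspase, had a log2 FC of 0.44 and Htra2, a protease of the intermembrane space that is released with cytochrome c, of 0.41. Diablo, which encodes the IAP antagonist SMAC, fell by 0.43 on the log2 scale. Each of these 3 genes passed in all 17 alternatives.
Of the 6 genes for inhibitor of apoptosis proteins (IAPs), 2 were higher and 2 were lower (median log2 FC 0.20). Birc3, which encodes cIAP2, fell by 0.47 on the log2 scale and passed in all 17 alternatives. Birc5, which encodes survivin and is also a mitotic gene, had a log2 FC of 0.65, Birc6 of 0.32 and Xiap, the direct caspase inhibitor, of -0.37. Birc5 and Birc6 passed in 10 and Xiap in 9 of the 17 alternatives, and each of the 3 lost the call without any 1 of the NME arrays, without AGR replicate 1 or without AGR replicate 3, and Xiap also with arrays centred on their medians (log2 FCs over all alternatives from 0.50 to 0.83 for Birc5, from 0.27 to 0.40 for Birc6 and from -0.45 to -0.25 for Xiap).
Of 11 measured genes of the death receptor pathway, 0 were higher and 1 was lower (median log2 FC -0.03). This was Tnfrsf1a, a receptor for TNF, with a log2 FC of -0.32. In at least 1 line, 8 of the 11 had a mean above the 95th percentile of the olfactory and vomeronasal receptor genes. Fasl, Tnfsf10 and Tnf lay under it in both lines, so a difference in them may have gone unseen. Fadd (log2 FC 0.22, adjusted p = 0.141 from limma), named after its values were seen, was the only other gene of the list with an unadjusted p under 0.05 in limma.
Of 10 genes for partners on the outer membrane and for mitochondrial fission and fusion, 2 were higher and 3 were lower (median log2 FC -0.06). Dnm1l, the fission GTPase, had a log2 FC of 0.32 and Mfn2, a fusion GTPase, of 0.30. Mtch2, the outer membrane docking protein of BID, had a log2 FC of -0.37 and Fis1, a fission adaptor, of -0.35. The last gene that fell was Vdac2, the outer membrane channel known to bind BAK, with a log2 FC of -0.27, named after its values were seen. Mfn2 did not pass without AGR replicate 3 or without any 1 of the NME arrays (log2 FCs over all alternatives from 0.24 to 0.36).

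Regulators of these genes and proteins differed in both directions. Of 17 measured regulators, 5 were higher, 5 were lower and 7 did not pass (median log2 FC 0.02). Over all genes tested 24.2% passed, and 37.2% of those at or above the median brightness of all probe sets, where all 17 lie. E2f1, a cell cycle transcription factor that is also known to induce BH3-only genes, rose from 9.36, 8.96 and 9.37 in NME to 10.45, 10.14 and 10.43 in AGR cells, a log2 FC of 1.11. Ddit3, which encodes the stress factor CHOP, known to repress Bcl2 and to induce Bcl2l11, was at 11.48, 11.65 and 11.53 in NME and at 9.92, 11.05 and 10.23 in AGR cells. The AGR arrays were widely spread, with replicate 2 nearest to NME, and all lay below the NME arrays. The log2 FC of Ddit3 was -1.15 (adjusted p = 0.0201 from limma). It did not pass without AGR replicate 1, without AGR replicate 3 or without any 1 of the NME arrays (log2 FCs over all alternatives from -1.48 to -0.91).
The following regulators were named after their values were seen. Foxo1 and Foxo3, forkhead factors known to activate Bcl2l11 and held inactive by growth factor signaling, had log2 FCs of -0.53 and -0.40. Foxo1 passed in all 17 alternatives. Foxo3 did not pass without AGR replicate 3 or without any 1 of the NME arrays (log2 FCs over all alternatives from -0.47 to -0.31). Dynll2, the light chain that holds BMF, had a log2 FC of 0.53, and Dynll1, the light chain that holds BIM, of -0.14. Dynll1 passed in 8 of the 17 alternatives. It lost the call with quantile normalization, with arrays centred on their medians and without any 1 array other than AGR replicate 2 (log2 FCs over all alternatives from -0.15 to -0.10). Usp9x, a deubiquitinase known to stabilize MCL1 protein, had a log2 FC of 0.56, and Huwe1, a ligase known to target MCL1, of 0.28. Huwe1 did not pass without AGR replicate 1, without AGR replicate 3 or without NME replicate 3. Jun, a component of AP-1, had a log2 FC of 0.63, and Marchf5, a ubiquitin ligase of the outer mitochondrial membrane, of -0.20. Jun did not pass without NME replicate 1 or 2 or without AGR replicate 2 or 3 (log2 FCs over all alternatives from 0.51 to 0.80). Marchf5 did not pass without any 1 array other than AGR replicate 2 or with arrays centred on their medians. Protein levels, binding and phosphorylation were not measured.

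**Figure D4:**
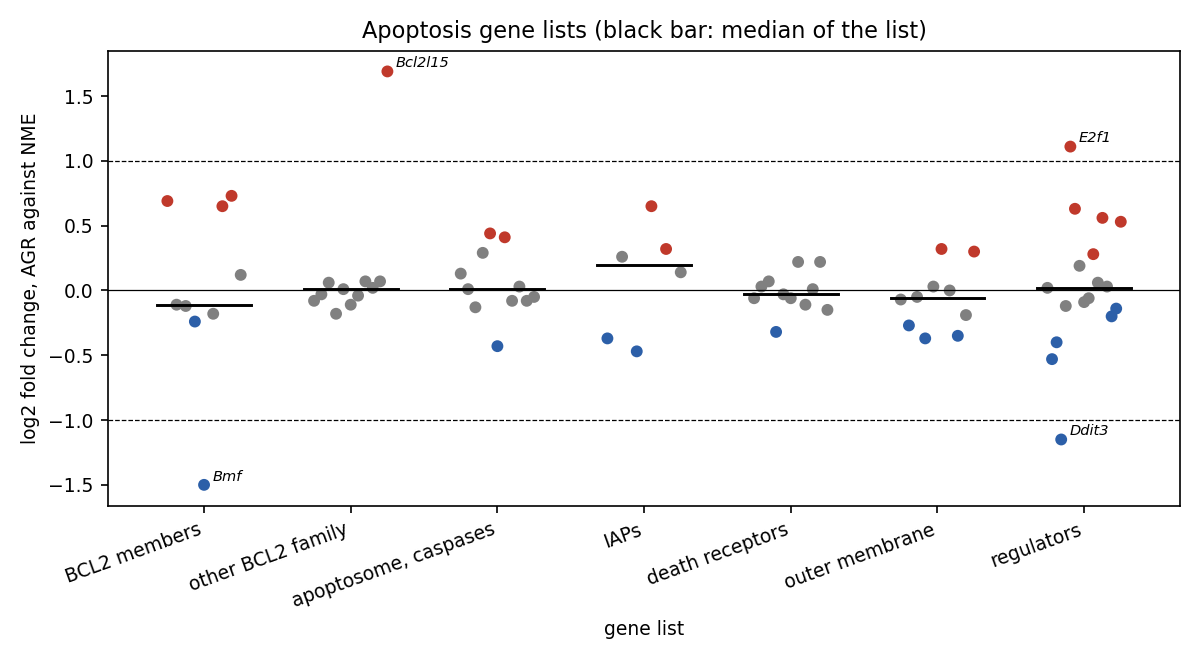
Log2 fold change of AGR against NME cells (y axis) of each measured gene in 7 lists (x axis), in red or blue where it was higher or lower in AGR cells and passed limma (adjusted p under 0.05), otherwise in gray. Black bars mark the medians, from -0.11 for the BCL2 members to 0.20 for the IAPs, and labelled genes exceed a FC of 2 (dashed lines).

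Markers of other cell types were read beside these results. Of 8 fibroblast markers 1 was higher in AGR cells (Pdgfra), of 7 measured immune markers 2 were higher (Cd68 and Csf1r) and 1 was lower (Cd14), of 6 endothelial markers 0 passed, and of 5 adipocyte markers 1 was lower (Cidec). Csf1r passed in 10 of the 17 alternatives. It lost the call without any 1 of the NME arrays, without AGR replicate 1 or without AGR replicate 3. The summed intensity of the fibroblast list was 1742 to 1925 on the NME and 1779 to 1903 on the AGR arrays, and that of the endothelial list 738 to 815 and 731 to 766. It was 4076 to 4436 and 3077 to 3612 for the immune list, and 1164 to 1362 and 682 to 767 for the adipocyte list. Such sums of linear intensities weigh the brightest gene most, which was Cd14 in the immune and Cidec in the adipocyte list. In at least 1 line, 5 of the 8 fibroblast, 4 of the 7 immune, 2 of the 6 endothelial and 2 of the 5 adipocyte markers had means above the 95th percentile of the receptor genes. Among them were Col1a1 (8.86 in NME and 8.87 in AGR cells), Cd14 (11.68 and 11.08), Vwf (7.98 and 7.96) and Cidec (9.76 and 8.47). Ptprc, Pecam1, Adipoq, Dcn and Lum lay under it in both lines. The epithelial list summed to 44832 to 45002 on the NME and 38563 to 39629 on the AGR arrays, with Cdh1 the 1 marker of 8 that passed as lower (log2 FC -0.60). The part of these differences in the values of the BCL2 family genes was not tested.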

How the data were processed

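Total RNA from NME and AGR cells was labelled with biotin and hybridized to 6 Affymetrix Mouse Gene 1.0 ST arrays, 3 for each line, with the line and replicate taken from the sample titles. The labels and methods do not say whether the arrays of a line came from separate cultures, so p-values describe the spread among arrays, which may be technical. The authors deposited processed intensity values, which are linear. The submitters' processing notes name MAS5 with no version. MAS5 uses mismatch probes, which this array lacks, so the normalization is not known, and the genome build is not given in the sources used here.

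log2 was taken from the deposited intensities without an offset. Of 35557 probe sets, 21789 had 1 gene symbol in the platform annotation, 1621 had several and 12147 had none. Only the first kind was tested. Symbols of 21698 were matched by gene ID to RefSeq, with 0 differences. The brightest probe set stood for a gene. AGR and NME were compared over 19938 genes with limma 3.58.1 in R 4.3.3 (lmFit, eBayes, no covariates), with Benjamini-Hochberg adjustment. Receptor genes were symbols that start with Olfr, Vmn1r or Vmn2r. Symbols that start with Or, part of the rule as first written, were left out because the 15 such symbols were other genes. Promoter windows came from RefSeq (GRCm38.p6).

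The genes named were all members, then from each list the genes that passed with a FC above 2, and otherwise up to 2 in each direction with the largest log2 FC among those that passed. The members and lists were chosen with earlier results of these data known. The steps were run on simulated data with independent noise for each gene and array, so effects shared by the genes of an array were not covered. The alternatives were quantile normalization, centring on array medians, filters at the 25th and 50th percentile of all probe sets, an offset of 16, testing every probe set, averaging the probe sets of each gene, the trend and robust options of eBayes, the methods' t-test (two-sided) with and without adjustment, the replicate number as a block, and leaving out each array.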

Additional observations from a re-analysis of the deposited data

How the results depend on the processing

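Of the 9 genes, none changed direction in any of the 17 alternatives. A member's log2 FC could change only with quantile normalization, centring on array medians, the offset or an array left out. The other alternatives keep it as it is and can change only the p-value. With all 6 arrays, 3 genes were higher, 2 were lower and 1 exceeded a FC of 2, and the last count stayed at 1 in all 17 alternatives. The number of lower genes was 1 with arrays centred on their medians and 1 when all probe sets were tested, where Bcl2l11 no longer passed. In the test of all probe sets 2 genes were higher, since Pmaip1 was lost. With the methods' t-test and adjustment, 1 gene was higher (Bcl2) and 1 was lower (Bmf). When 1 array was left out, 1 to 3 genes were higher and 1 to 2 were lower, the lowest counts being those without NME replicate 2 (1 higher, 1 lower). Fewer arrays remain in these fits, so a lost call need not be a smaller difference. Pmaip1 lost its call at log2 FCs from 0.64 to 0.74, beside 0.65 with all arrays. Bok lost it at 0.69 and 0.73, beside 0.73, and Bcl2l11 at -0.27 to -0.20, beside -0.24. Bcl2l11, Pmaip1 and Bok passed in 9, 11 and 14 of the 17 alternatives. Bbc3 passed in 1 and Bcl2l1, Mcl1 and Bak1 in 0. Deviations of arrays with the same number correlated at -0.13, 0.33 and 0.26 for replicates 1, 2 and 3. NME replicates 2 and 3 correlated best with the AGR array of the same number, and NME replicate 1 with AGR replicate 3 (0.36). Whether the replicate numbers pair the arrays cannot be told from these values. With the replicate number as a block, 3 genes were higher and 2 were lower, and the block changed no call of a member. Among the regulators, Dynll1 and Marchf5 lost their calls with the block, which left 3 lower in place of 5, and 3 apoptosome and caspase genes were higher in place of 2. In the filters on dim genes all 9 members remained, and each has 1 probe set, so averaging probe sets could not change its value. Without detection calls, brightness over background could be judged only from the receptor genes.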
